A study of Rattus norvegicus with 32 samples.

Results

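The transcripts followed here encode 10 heat shock proteins of the cytosol and the mitochondrion, in the rat glioma cell line C6 exposed to angiotensin II (Ang II): Hsph1, Hspa8, Hspa1b, Hspa4, Hsp90aa1, Hspd1, Hspe1, Hspb1, Dnaja1 and Dnajb1. They were picked by gene name as it stands on the array, with earlier results of these arrays known, among them the large Hsph1 value in Ang II against Control at 6 h. They make up 10 of 26583 gene names and 17 of 30367 probes. Untreated cells (Control) were compared with cells that received 100 nM Ang II alone, with cells first given Losartan, which blocks the AT1 receptor (Ang II+Los), and with cells first given PD123319, which blocks the AT2 receptor (Ang II+PD123319). Both antagonists were used at 10 µM, and no group received an antagonist without Ang II. RNA was taken at 3 h and at 6 h, with 4 replicates of each of the 8 groups, and each of the 32 samples was hybridized to a rat expression array with 1 dye. Confluent cells of 1 line served as the model, and the sources used here do not say whether the replicates were separate cultures. The p-values therefore measure the spread between these samples, which may be technical.

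Heat shock proteins are chaperones, which hold unfolded protein chains and help them reach or regain their shape. HSP70 proteins (Hspa8, Hspa1b) bind short stretches of unfolded chains in a cycle driven by ATP. J proteins (Dnaja1, Dnajb1) deliver clients to HSP70 and start its ATP hydrolysis, and proteins of the HSP110 family (Hsph1, Hspa4) exchange its nucleotide. HSP90 (Hsp90aa1) acts later, on kinases, steroid receptors and other signalling proteins, many of which serve tumour cells. Hspd1 and Hspe1 form the folding chamber of the mitochondrial matrix and its lid, and the small protein Hspb1 keeps unfolded proteins from clumping without using ATP. Many of these genes are switched on by heat shock factor HSF1, which binds repeats of the unit GAA in alternating orientation upstream of their start sites. Hspa8 is the constitutive HSP70 of most cells, and Hspa1b is the form best known for its induction by stress.

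Promoter sequences are shown to describe the letters of the heat shock element in members with an entry. Windows from 250 bases before to 25 bases after the start site come from RefSeq on the rat build GRCr8, and capitals mark every match to GAANNTTC or TTCNNGAA, the pairs of inverted units. The Hsph1 window is chr12:10427118-10427392 on the plus strand, that of Hspa8 is chr8:50080264-50080538 on the plus strand, and that of Dnaja1 is chr5:60638154-60638428 on the plus strand. Hspe1 is shown from chr9:64084077-64084351 on the plus strand, and this window shares 211 bases with that of Hspd1, which is read from the opposite strand. Hspa4 is shown from chr10:37949811-37950085 on the minus strand.
Hsph1: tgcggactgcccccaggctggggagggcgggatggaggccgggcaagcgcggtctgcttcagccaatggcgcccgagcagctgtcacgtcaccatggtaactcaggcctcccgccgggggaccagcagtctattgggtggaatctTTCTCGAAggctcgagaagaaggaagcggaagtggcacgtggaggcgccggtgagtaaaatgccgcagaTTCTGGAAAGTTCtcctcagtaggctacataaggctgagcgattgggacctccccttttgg
Hspa8: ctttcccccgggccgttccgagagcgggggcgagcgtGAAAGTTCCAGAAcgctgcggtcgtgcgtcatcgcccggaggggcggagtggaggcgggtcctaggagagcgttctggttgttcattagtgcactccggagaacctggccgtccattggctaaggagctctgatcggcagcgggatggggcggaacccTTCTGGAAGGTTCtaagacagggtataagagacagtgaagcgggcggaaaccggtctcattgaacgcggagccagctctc
Dnaja1: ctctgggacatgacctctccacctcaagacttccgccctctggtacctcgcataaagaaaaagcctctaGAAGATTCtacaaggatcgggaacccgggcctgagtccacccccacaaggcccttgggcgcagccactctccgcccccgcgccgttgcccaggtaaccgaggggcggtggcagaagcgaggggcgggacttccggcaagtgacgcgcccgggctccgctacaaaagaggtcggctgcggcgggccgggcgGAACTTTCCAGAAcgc
Hspe1: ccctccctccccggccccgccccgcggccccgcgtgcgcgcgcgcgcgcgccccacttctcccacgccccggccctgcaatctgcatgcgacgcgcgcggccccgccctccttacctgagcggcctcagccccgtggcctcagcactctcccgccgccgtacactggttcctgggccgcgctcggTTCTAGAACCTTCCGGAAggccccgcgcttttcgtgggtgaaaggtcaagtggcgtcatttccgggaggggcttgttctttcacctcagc
Hspa4: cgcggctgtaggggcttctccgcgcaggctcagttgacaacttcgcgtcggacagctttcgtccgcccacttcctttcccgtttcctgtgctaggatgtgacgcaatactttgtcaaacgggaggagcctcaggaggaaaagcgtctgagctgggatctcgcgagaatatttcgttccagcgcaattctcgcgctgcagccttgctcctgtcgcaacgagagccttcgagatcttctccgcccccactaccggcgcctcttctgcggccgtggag

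RefSeq gave a promoter for 8 of the 10 members, and Hsp90aa1 and Hspa1b had no entry. GAANNTTCNNGAA, which holds 3 units and was searched in both orientations, was found in 5 of the 8 member windows and in 0.798% of all 33469 promoters of the same length. Hspd1 and Hspe1 are both among the 5, and they hold the same stretch read from opposite strands. The pair GAANNTTC was found in 7 of the 8 windows against 8.59% of all promoters, and TTCNNGAA in 5 of the 8 against 8.77%. These pairs read the same on both strands, and any match of the longer motif contains both of them. Counted from its first base, the longer motif began 36 bases before the start of Hsph1, 213 and 55 bases before that of Hspa8, and 65 and 60 bases before that of Hspe1. In Dnaja1 it began 10 bases after the start. Hspb1 and Dnajb1 held only GAANNTTC, and the Hspa4 window held neither pair. Either pair was found in 15.9% of all promoters, so that most promoters hold neither. How these letters relate to the differences between groups was not tested. A match is a description of the letters and says nothing of binding in these cells.

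The probe sequences that carry the main values are shown next. Coordinates are those of the files, on rn4 and the plus strand, and an annotation of that build was not used here, so that exons and untranslated regions are not named. The Hsph1 probe A_44_P121374 lies at chr12:5809732-5809791 and the Dnaja1 probe A_44_P555253 at chr5:58110714-58111203, where its 60 bases are spread over 490. Hspa8 has 4 probes, named here in the direction of transcription: A_64_P014723 at chr8:43785314-43785489, A_64_P096381 at chr8:43785470-43785529, A_64_P061286 at chr8:43787204-43787517 and A_64_P023392 at chr8:43787518-43787576. Capitals mark the 20 bases that the first pair of Hspa8 probes share.
Hsph1 A_44_P121374: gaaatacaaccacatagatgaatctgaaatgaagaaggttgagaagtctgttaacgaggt
Dnaja1 A_44_P555253: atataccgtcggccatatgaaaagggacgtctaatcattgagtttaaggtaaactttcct
Hspa8 A_64_P014723: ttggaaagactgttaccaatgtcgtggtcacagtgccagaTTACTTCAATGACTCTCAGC
Hspa8 A_64_P096381: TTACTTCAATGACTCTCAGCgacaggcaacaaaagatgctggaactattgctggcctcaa
Hspa8 A_64_P061286: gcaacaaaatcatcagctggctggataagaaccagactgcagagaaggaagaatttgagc
Hspa8 A_64_P023392: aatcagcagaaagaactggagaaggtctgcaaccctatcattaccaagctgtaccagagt

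Levels are log2 signals after cyclic loess among the 16 arrays of a time, averaged over the probes of a gene. The times were normalized apart, and levels are not compared between times or between genes. On each slide the 4 groups stood in a fixed order, Control first, followed by Ang II, Ang II+Los and Ang II+PD123319, so that position and treatment cannot be told apart. The Ang II+Los array of replicate 2 at 3 h stood apart, with 8.28% of genes over 2-fold from the mean of their slide, followed by Control replicate 2 with 4.01% and Ang II+Los replicate 1 with 3.35%. The remaining 3 h arrays had 1.75% or less and the 6 h arrays 1.07% or less. Of the glial and glioma markers, 6 of 8 were well above background on all 32 arrays, Gfap on 2 and Slc1a3 on none. Of the markers of microglia and leukocytes, 4 of 6 were above background on all 32 arrays while Ptprc was so on none, and 1 of 6 neuronal, 2 of 6 oligodendrocyte and 1 of 5 endothelial markers were above it on all. All 10 members passed the filter on dim probes at both times. Hspb1, the dimmest, was well above background on 13 of the 16 arrays at 3 h.

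A gene is said here to pass when its unadjusted limma p was under 0.05 and its fold change above 1.2 or below 0.8. Differences are log2 fold changes with their standard error (SE), fitted over all 16 arrays of a time with the slide as a block, and positive values mean a higher level in the group named first. At 3 h, 3 of the 10 members passed in Ang II against Control, Dnaja1, Dnajb1 and Hspa1b, all higher with Ang II. In this comparison 11.0% of all 13630 genes passed, namely 5.00% of all genes higher and 5.97% lower. Without the slide as a block, Hspa1b alone passed here. Hspa4 was lower with Ang II in 4 of 4 replicates and did not pass. Of all genes, 12.5% were lower and 11.8% higher in 4 of 4 replicates here. The median over the members was 0.14, against 0.00 over all genes. No gene had an adjusted p under 0.05, and 1729 genes had an unadjusted limma p under 0.05. In RNA from whole cultures, a change in the cells that express a gene and a change in RNA per cell cannot be told apart.

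Dnaja1, a J protein of the cytosol, read 12.71, 12.28, 12.17 and 12.14 in Control replicates 1 to 4 at 3 h. With Ang II it read 12.79, 13.30, 12.38 and 12.86. The groups overlapped, but Ang II was higher on each of the 4 slides, by 0.08, 1.02, 0.21 and 0.72. The fitted difference was 0.51 (SE 0.15, n = 4 slides, limma adjusted p = 0.322). Ang II+Los read 13.28, 13.25, 12.36 and 12.92, again above Control on every slide. The Control arrays are the same in all of these comparisons. The Ang II+Los against Control difference was 0.63 (SE 0.15, limma adjusted p = 0.176), and that of Ang II+PD123319 against Control was 0.42 (SE 0.15, limma adjusted p = 0.591). In Ang II against Control it no longer passed without replicate 4 (0.44), and with PD123319 it no longer passed without replicate 2 (0.27) or without replicate 4 (0.38). Replicate 3 gave the smallest or next to smallest difference in each of these Control comparisons. Within the scan of replicates 1 and 2 the Ang II against Control difference of Dnaja1 averaged 0.55, and within that of replicates 3 and 4 it averaged 0.46.

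Dnajb1, the J protein best known for its partnership with inducible HSP70, read 10.49, 9.55, 9.18 and 9.36 in Control at 3 h. Its Ang II values were 10.53, 10.38, 9.24 and 10.48. Replicates 2 and 4 moved by 0.83 and 1.12, while replicates 1 and 3 moved by 0.04 and 0.05. The fitted difference was 0.51 (SE 0.21, limma adjusted p = 0.370), and it no longer passed without replicate 4 (0.31) or without replicate 2 (0.40). In Ang II+PD123319 against Control the difference was 0.54 (SE 0.21, limma adjusted p = 0.618), with -0.01, 1.25, -0.06 and 0.99 on the 4 slides, and it no longer passed without replicate 2 (0.31) or without replicate 4 (0.39). At 6 h Dnajb1 did not pass in any comparison, and its 16 arrays lay between 9.77 and 10.78.

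Hspa1b, the inducible HSP70, had the largest SD of the members among the Control arrays of 3 h, at 0.668, with Dnajb1 next at 0.585. It read 6.92, 5.65, 6.78 and 5.75 in Control at 3 h and 7.04, 7.65, 6.40 and 7.53 with Ang II. The lower Control arrays, replicates 2 and 4, gave differences of 2.00 and 1.78, against 0.12 and -0.38 in replicates 1 and 3. The fitted difference was 0.88 (SE 0.37, limma adjusted p = 0.373), and it no longer passed without replicate 2 (0.51) or without replicate 4 (0.58). With Losartan the values were 7.38, 8.21, 6.58 and 7.10, and the difference from Control was 1.04 (SE 0.37, limma adjusted p = 0.186), which no longer passed without replicate 2 (0.54) or without replicate 4 (0.94). Control also spread at 6 h, with 7.44, 5.96, 7.35 and 6.50, while the 12 arrays of the other groups lay between 7.06 and 7.65. Hspa1a, a neighbour with a nearly identical transcript, may bind the same probe, and this was not tested. A further Hspa1b probe was above background on 0 arrays and was not used.

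Markers of other cell types were read on the same 3 h arrays. Of the 4 tested markers of microglia and leukocytes, Cx3cr1 passed with Ang II against Control, at -1.11 (limma adjusted p = 0.322) and a lower value on all 4 slides. The oligodendrocyte marker Mobp, 1 of 3 tested in its list, also passed there with -0.41 (limma adjusted p = 0.370), from -0.31, -0.31, -0.27 and -0.75. The summed log2 level of the 4 microglia and leukocyte markers lay between 7.80 and 8.80 in Control and between 7.83 and 8.41 with Ang II, and that of the 3 oligodendrocyte markers between 7.33 and 8.38 and between 7.25 and 8.44. Their part in the differences of Dnaja1, Dnajb1 and Hspa1b was not tested.

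**Figure D1:**
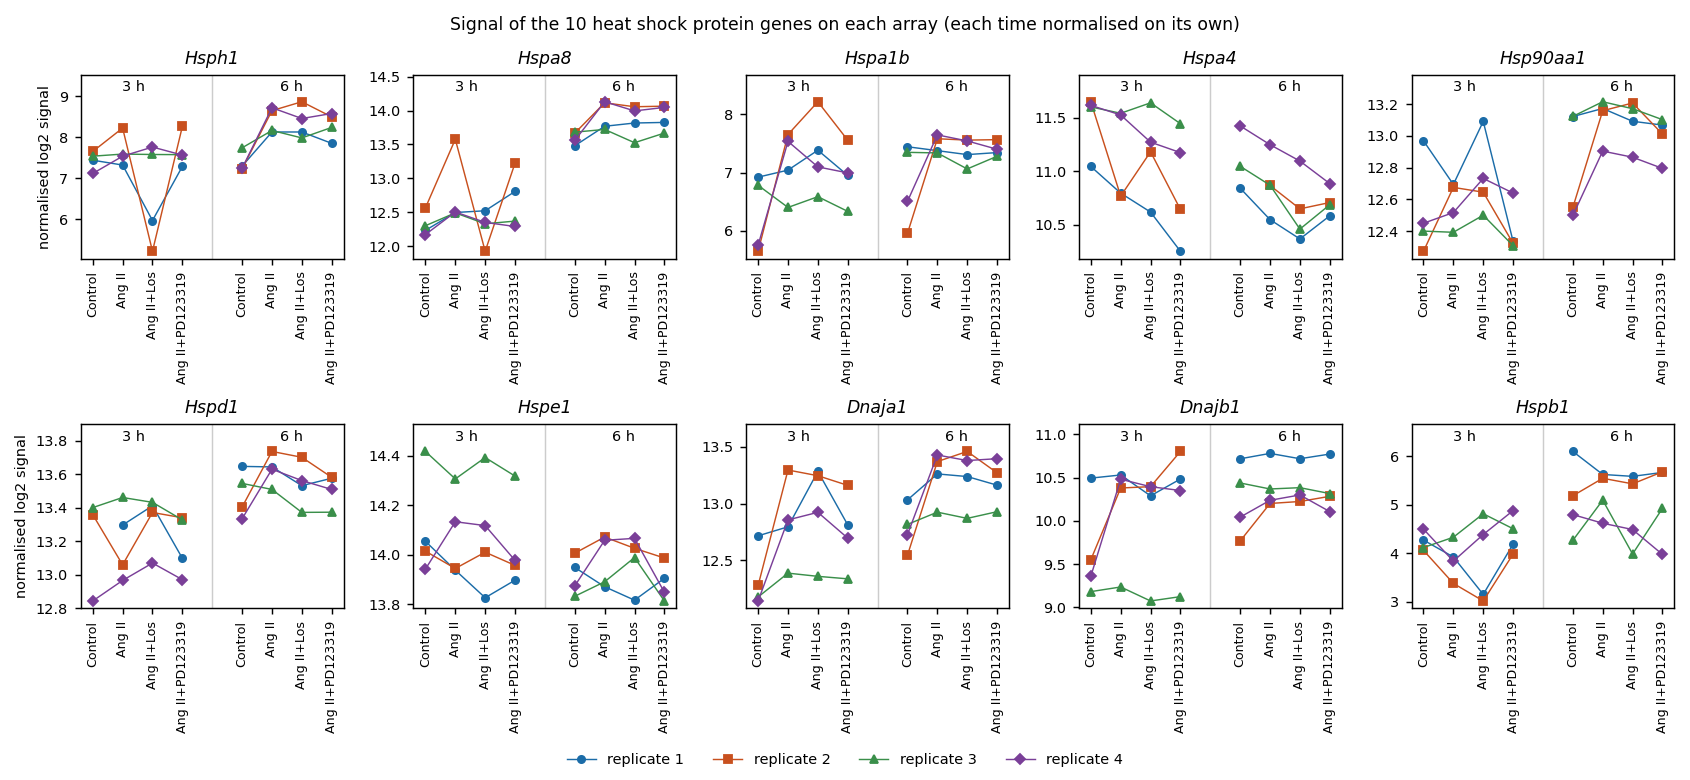
Normalised log2 signal of the members in each of the 32 arrays, for each of the 10 members, with 3 h on the left and 6 h on the right of a panel. Points are arrays and lines join the arrays of 1 slide, and in the Hsph1 panel at 6 h every array with Ang II lies above every Control array.

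At 6 h, Hsph1 stood higher in every group that received Ang II. It read 7.30, 7.23, 7.74 and 7.24 in Control and 8.13, 8.65, 8.17 and 8.72 with Ang II. With Losartan it read 8.13, 8.87, 7.99 and 8.46, and with PD123319 7.85, 8.50, 8.24 and 8.58. No array of these groups fell to the level of the highest Control array. The group means were 7.38 ± 0.24 in Control, 8.42 ± 0.31 with Ang II, 8.36 ± 0.39 with Ang II+Los and 8.29 ± 0.33 with Ang II+PD123319 (SD, n = 4 each). Control replicate 3, at 7.74, gave the smallest difference in all of these comparisons. All Hsph1 values come from the probe A_44_P121374 alone. Over 1230 genes with probes at least 500 bases apart, the median of the upstream minus the downstream probe varied among these arrays. It was -0.16, -0.06, 0.02 and -0.04 in Control and 0.03, 0.03, 0.05 and 0.04 with Ang II. It lay between -0.01 and 0.09 with Ang II+Los and between -0.05 and 0.04 with Ang II+PD123319. Its part in the Hsph1 differences was not tested.

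The Ang II against Control differences at 6 h were known when the members were picked and are given as a description without a test. Hsph1 differed by 1.04 (SE 0.18), with 0.83, 1.42, 0.42 and 1.48 on the 4 slides. Hspa1b followed with 0.67 (SE 0.27), where replicates 1 and 3 gave -0.07 and -0.01 and replicates 2 and 4 gave 1.62 and 1.14. Dnaja1 differed by 0.47 (SE 0.12), Hspa8 by 0.34 (SE 0.09) and Hsp90aa1 by 0.29 (SE 0.10), and all of these were higher on 4 of 4 slides. So were 12.2% of all genes. These 5 members lay past the limits, where 11.5% of all 16448 genes did, and nothing is read from that count. Dnajb1, Hspd1, Hspb1 and Hspe1 had between 0.06 and 0.16. Hspa4 alone was below 0, with -0.22 on the 3 slides where Control had a value, since its Control array of replicate 2 was a gap.

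The oligodendrocyte marker Cnp moved with Hsph1 at 6 h. It was higher than Control by 0.43 with Ang II, from 0.26, 0.86, 0.15 and 0.48 on the slides, by 0.30 with Ang II+Los and by 0.40 with Ang II+PD123319. It passed in these comparisons and was the 1 of 4 tested oligodendrocyte markers to do so. The summed log2 level of the 4 markers lay between 7.96 and 9.00 in Control, between 8.22 and 8.89 with Ang II, between 8.23 and 8.85 with Ang II+Los and between 8.32 and 8.62 with Ang II+PD123319. Their part in the Hsph1 differences was not tested.

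**Figure D2:**
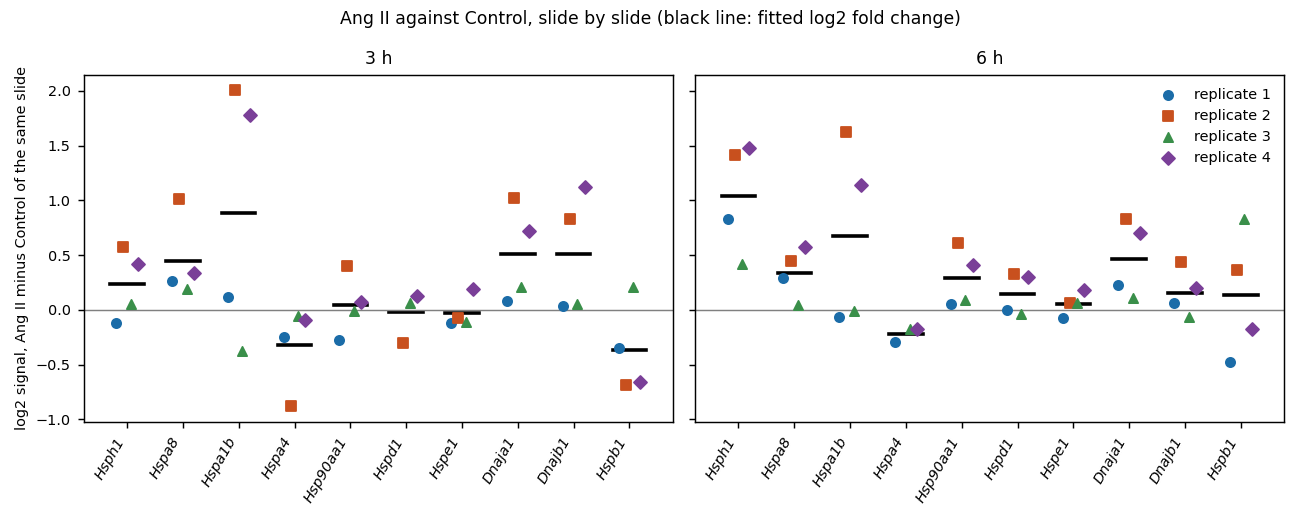
Log2 signal of the Ang II array minus the Control array of the same slide for the 10 members at 3 h and 6 h, with 1 point per replicate and a black line at the fitted log2 fold change. Hspa1b at 3 h runs from -0.38 to 2.00, and Hsph1 at 6 h lies above 0 on every slide.

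Both antagonist groups were compared with Control as well. Earlier results of these arrays were known when the members were picked, and the Control arrays are shared with Ang II against Control. The p-values given here are therefore not independent of that choice. In Ang II+Los against Control at 6 h, 3 members passed, against 11.4% of all genes, and in Ang II+PD123319 against Control 4 passed, against 13.5%. Hsph1 was higher by 0.98 with Losartan (SE 0.18, limma adjusted p = 0.0369), with 0.83, 1.63, 0.24 and 1.21 on the slides. With PD123319 it was higher by 0.91 (SE 0.18, limma adjusted p = 0.0405), with 0.56, 1.27, 0.50 and 1.34. All 4 arrays of the antagonist group lay above all Control arrays for 0.918% of genes with Losartan and for 0.657% with PD123319. The adjusted limit was passed by 234 genes (1.42%) and 230 genes (1.40%). This adjusted call depended on the setting, and 0 genes passed it without the slide as a block, with only the 8 arrays of the comparison, and without replicate 4. Without replicate 2 it was passed by 0 genes with Losartan and 1 with PD123319, without replicate 1 by 3 and 412, and with no filter on dim probes by 1 and 5. Without replicate 3 it was passed by 800 and 237. With probes well above background on all 16 arrays 430 and 375 genes passed it, and with the deposited values 317 and 288. Whether Hsph1 was among the genes passing in these settings is not given here. The Hsph1 differences without any 1 replicate stayed between 0.76 and 1.23 and between 0.77 and 1.05. Within the scan of replicates 1 to 3 they averaged 0.90 and 0.77, and on the slide of replicate 4 they were 1.21 and 1.34.

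Hspa4, the other HSP110 protein, was lower in the same comparisons. At 6 h its Control arrays read 10.84, 11.04 and 11.42, with a gap in replicate 2, and Ang II+Los read 10.37, 10.65, 10.46 and 11.09. Ang II+PD123319 read 10.58, 10.71, 10.69 and 10.88. The groups overlapped, but each slide with a Control value had a lower level with either antagonist. The differences from Control were -0.46 with Losartan (SE 0.08, limma adjusted p = 0.0368) and -0.39 with PD123319 (SE 0.08, limma adjusted p = 0.0481), fitted with 3 Control arrays. Without the slide as a block the latter did not pass. At 3 h, the difference with PD123319 was -0.60 (SE 0.15, limma adjusted p = 0.459), and -0.79, -1.01, -0.16 and -0.44 on the slides. Here 3 members passed, Hspa4, Dnaja1 and Dnajb1, against 6.07% of all genes, and 0 genes passed the adjusted limit while 1032 had an unadjusted limma p under 0.05. Without the slide as a block none of these 3 passed. In Ang II against Control at 3 h Hspa4 fell short of the limits, with -0.32 (SE 0.15) and -0.25, -0.88, -0.06 and -0.09.

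The remaining calls at 6 h were smaller. Dnaja1 was higher than Control by 0.46 with Losartan (SE 0.12, limma adjusted p = 0.0764) and by 0.41 with PD123319 (SE 0.12, limma adjusted p = 0.0933). It was higher on 4 of 4 slides in each, as were 9.41% and 9.31% of all genes. Hspa8 was higher by 0.30 with PD123319 (SE 0.09, limma adjusted p = 0.0927), a call that was lost without replicate 4 (0.24) and also without the slide as a block. Dnaja1 with PD123319 did not pass without replicate 4 (0.32). With Losartan, Hspa8 had 0.25 (95% interval 0.05 to 0.45) and Hsp90aa1 had 0.26 (95% interval 0.04 to 0.48), and both missed the fold limit. Hspa1b had 0.55 with Losartan (95% interval -0.04 to 1.15) and 0.58 with PD123319 (95% interval -0.01 to 1.18), and it passed in neither, whereas without the slide as a block it passed in both.

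**Figure D3:**
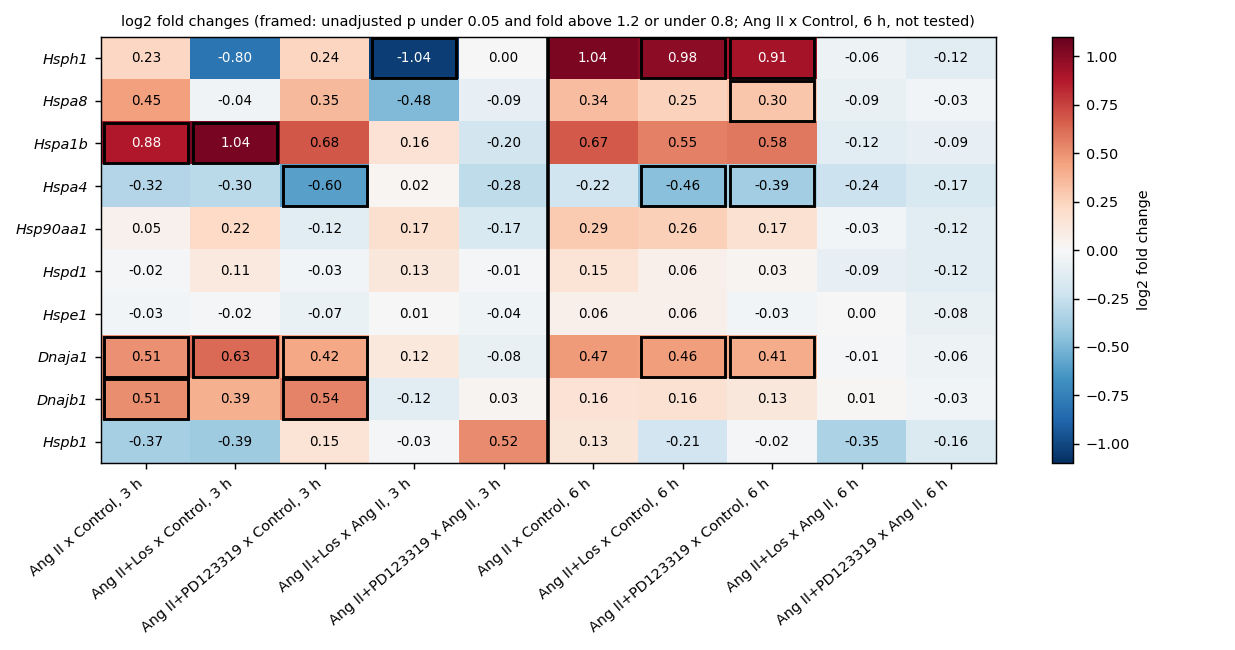
Log2 fold change of each member in each comparison at 3 h and 6 h, as fitted by limma with the slide as a block. Framed cells passed the limits, and Ang II against Control at 6 h carries no frames because its values were known when the members were picked. Hsph1 and Hspa4 lie at opposite ends of the 6 h Control comparisons, at 0.98 and -0.46 with Losartan.

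Losartan and PD123319 were next compared with Ang II alone, which asks whether blocking a receptor altered the levels reached with Ang II. At 6 h, 0 of the 10 members passed in either comparison, where 0.900% of all genes passed with Losartan and 3.79% with PD123319. The adjusted limit was passed by 0 genes in both, and 328 and 1048 genes had an unadjusted limma p under 0.05. Hsph1 differed by -0.06 with Losartan (95% interval -0.45 to 0.34) and by -0.12 with PD123319 (95% interval -0.52 to 0.27). Dnaja1 differed by -0.01 (95% interval -0.28 to 0.26) and -0.06 (95% interval -0.33 to 0.21). For Hspa8 the differences were -0.09 (95% interval -0.28 to 0.11) and -0.03 (95% interval -0.23 to 0.17). A p that misses the limit does not show that the groups were alike, and the intervals give the differences that remain possible. With Losartan, 4 members were lower on 4 of 4 slides (Hspa4, Hspa1b, Hspd1 and Hspb1), where 7.21% of all genes were. Hspa4 was lower by 0.24 (SE 0.08, 95% interval -0.41 to -0.07), within the fold limit. In Ang II+PD123319 against Ang II at 6 h all 10 members were below 0, with a median of -0.10 against 0.00 over all genes, and none of them passed.

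At 3 h, Hsph1 fell with Losartan relative to Ang II, and this value rested on a pair of slides. It read 7.44, 7.65, 7.54 and 7.12 in Control and 7.32, 8.23, 7.59 and 7.54 with Ang II. With Losartan it read 5.97, 5.22, 7.58 and 7.76, and with PD123319 7.29, 8.27, 7.58 and 7.57. Replicates 1 and 2 with Losartan were the lowest of the 16 arrays, and replicates 3 and 4 were within the range of the other groups. The Ang II+Los against Ang II difference was -1.04 (SE 0.46, 95% interval -2.03 to -0.04, limma adjusted p = 0.425), from -1.35, -3.00, -0.01 and 0.22. The same arrays are those with 3.35% and 8.28% of genes over 2-fold from their slide mean. On them the median of the upstream minus the downstream probe was -0.10 and -0.43, and its part in the Hsph1 values was not tested. Without replicate 2 the difference was -0.38, without replicate 1 it was -0.93, and without both it was 0.11, and it passed under none of these. Within the scan of replicates 1 and 2 it averaged -2.18 and within that of replicates 3 and 4 it averaged 0.11, so that it did not hold within both scans.

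Hsph1 was the 1 member to pass in that comparison, where 10.2% of all genes did, 0 genes passed the adjusted limit, and 1504 had an unadjusted limma p under 0.05. With PD123319 at 3 h the Hsph1 difference from Ang II was 0.00 (95% interval -0.99 to 1.00), and 0 members passed against 2.65% of all genes. There 0 genes passed the adjusted limit and 408 had an unadjusted limma p under 0.05. Hspb1 was higher on 4 of 4 slides, as were 6.30% of all genes, by 0.52 (SE 0.26, 95% interval -0.03 to 1.08), and it did not pass. Hspa4 was lower on 4 of 4, by 0.28 (SE 0.15, 95% interval -0.60 to 0.04), and so was Hspa1b, by 0.20, where 7.64% of all genes were lower on 4 of 4. In Ang II+Los against Control at 3 h Hsph1 had -0.80 (SE 0.46, 95% interval -1.80 to 0.19), and Dnaja1 and Hspa1b passed where 20.0% of all genes did. In this comparison 0 genes passed the adjusted limit and 2964 had an unadjusted limma p under 0.05. The change of the Ang II+Los against Ang II difference of Hsph1 from 3 h to 6 h was 0.99 (SE 0.53, limma adjusted p = 0.731). None of the 10 members, and 0 of 16460 genes, passed the adjusted limit for such a change with either antagonist.

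Among the oligodendrocyte markers, Cnp moved with Hsph1 on the Losartan slides at 3 h. In Ang II+Los against Ang II it had -1.14 (limma adjusted p = 0.425), from -1.41, -3.05, 0.03 and -0.13. It was the 1 marker of 3 tested in this list to pass, and the summed log2 level of the 3 lay between 5.92 and 7.82 with Ang II+Los and between 7.25 and 8.44 with Ang II. Mbp, a defining marker, was above background on 1 of 32 arrays. All samples were of the C6 line, and how the Cnp and Hsph1 values are related was not tested.

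Hspa8, the constitutive HSP70, was measured by 4 probes that did not give the same difference. As the mean of its complete probes it read 12.24, 12.57, 12.30 and 12.17 in Control at 3 h and 12.50, 13.58, 12.49 and 12.51 with Ang II. Replicate 2 with Ang II was far above the other arrays of its group. The difference was 0.45 (SE 0.23, 95% interval -0.04 to 0.94), higher on 4 of 4 slides. The upstream probes A_64_P014723 and A_64_P096381 gave 0.70 and 0.59, and the downstream probe A_64_P061286 gave 0.06. The last probe, A_64_P023392, had gaps on the slides of replicates 2 and 4 and averaged -0.16 over replicates 1 and 3. In Ang II against Control at 6 h the order was alike, with 0.48 and 0.48 upstream and 0.23 and 0.16 downstream. On the same arrays the median of the upstream minus the downstream probe over 1230 genes was -0.16, -0.06, 0.02 and -0.04 in Control and 0.03, 0.03, 0.05 and 0.04 with Ang II, lower in Control on every slide, and its part in this difference was not tested.

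The upstream Hspa8 probes carried the low value of the Losartan array of replicate 2. Against Ang II they gave -2.07 and -2.61 on that slide, while the downstream probes gave -0.27 and -0.01. Over 920 genes with complete probes at least 500 bases apart, the median of the upstream minus the downstream probe was -0.43 on this array and between -0.10 and 0.15 on the other 3 h arrays. Its part in the Hspa8 difference was not tested. In Ang II+Los against Ang II at 3 h the upstream probes gave -0.62 and -0.72, and the downstream probes gave -0.11 and -0.02. Averaged over its complete probes, which leaves out A_64_P023392, Hspa8 had -0.48 in this comparison (SE 0.23, 95% interval -0.98 to 0.01). The mean over whatever probes each array has gave -0.37 (SE 0.24). Copies of Hspa8 elsewhere in the genome could share signal with some of these probes, and this was not tested.

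**Figure D4:**
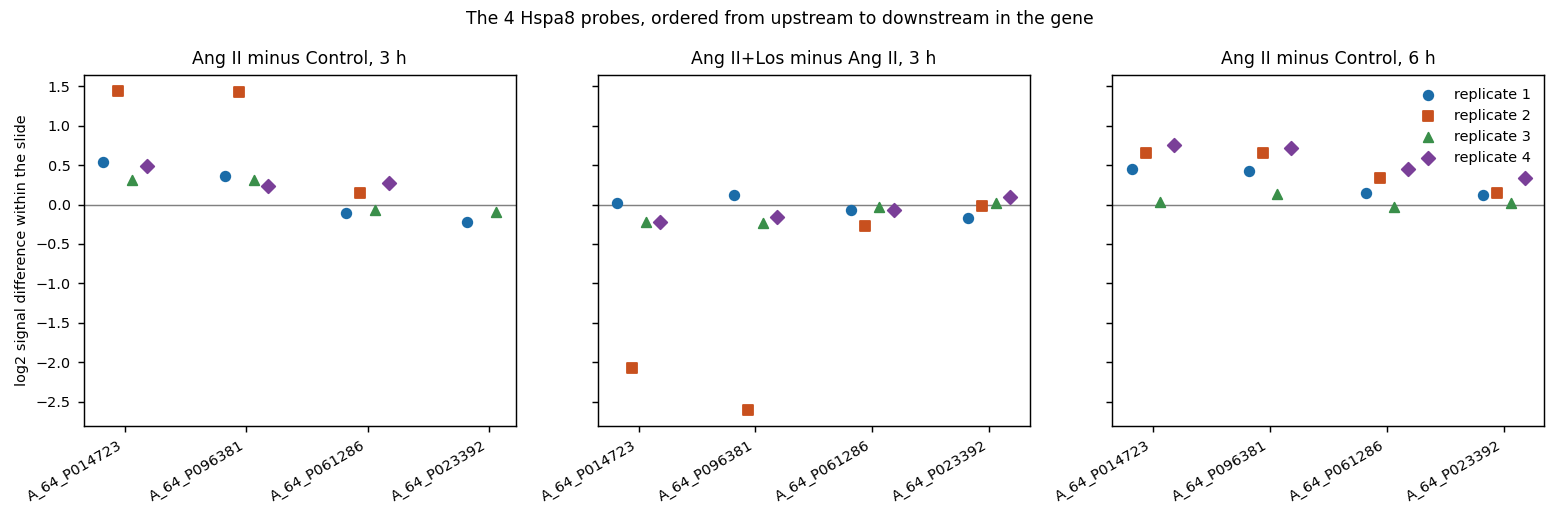
Log2 differences of the 4 Hspa8 probes within slides, from upstream to downstream, in Ang II against Control at 3 h, Ang II+Los against Ang II at 3 h and Ang II against Control at 6 h, with 1 point per replicate. The upstream probes averaged 0.70 and 0.59 in Ang II against Control at 3 h, and the next probe downstream averaged 0.06.

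Hsp90aa1, the inducible cytosolic HSP90, lay between 12.27 and 13.09 on the 3 h arrays and between 12.50 and 13.21 at 6 h. Its Ang II against Control difference was 0.05 at 3 h (SE 0.13, 95% interval -0.25 to 0.34). In Ang II+Los against Control at 3 h it was 0.22 (SE 0.13, 95% interval -0.07 to 0.51), higher on 4 of 4 slides, as were 11.5% of all genes. Its 3 probes differed in size but not in sign in Ang II against Control at 6 h, with 0.34, 0.12 and 0.41. Probe A_44_P299870 was lower in Ang II+PD123319 than in Ang II on all 4 slides at 6 h, by -0.31, -0.23, -0.26 and -0.36, while the other probes averaged -0.03 and -0.04.

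The mitochondrial chaperonin pair differed little between groups. Hspd1 lay between 12.84 and 13.46 at 3 h, with a gap in Control replicate 1, and between 13.33 and 13.74 at 6 h. Its Ang II against Control difference at 3 h was -0.02 (SE 0.13, 95% interval -0.30 to 0.27), fitted with 3 Control arrays. Hspe1, its lid, lay between 13.83 and 14.42 at 3 h and between 13.81 and 14.07 at 6 h. The corresponding difference was -0.03 (SE 0.09, 95% interval -0.22 to 0.17), and its probes gave -0.17 and 0.12. Every Hspe1 difference fell between -0.07 and 0.06 apart from -0.08 in Ang II+PD123319 against Ang II at 6 h. The small heat shock protein Hspb1 was dim, between 3.02 and 4.88 at 3 h and between 3.98 and 6.10 at 6 h, and its SE was 0.26 and 0.24. None of Hspd1, Hspe1 and Hspb1 passed in any comparison.

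Partners of these chaperones were read from lists of genes, all chosen with earlier results known. Of 26 tested co-chaperones of HSP70 and HSP90, 7 were higher and 0 lower in Ang II against Control at 3 h, where 5.00% of all genes were higher and 5.97% lower, led by the nucleotide exchange factors Bag3 at 0.66 (limma adjusted p = 0.322) and Bag2 at 0.61, and by Tomm34 at 0.59. The list median was 0.19, against 0.00 over all genes. At 6 h, 3 of the 26 were higher and 0 lower in each of the Control comparisons, where 6.79% of all genes were higher with Ang II, 6.53% with Ang II+Los and 7.08% with Ang II+PD123319. Ahsa2, related to the activator of the HSP90 ATPase, had 0.59 in Ang II against Control, 0.61 in Ang II+Los against Control and 0.60 in Ang II+PD123319 against Control. Stip1, which links HSP70 to HSP90, had 0.49, 0.48 and 0.37 in the same order, and Fkbp4, a co-chaperone of steroid receptors, had 0.35, 0.28 and 0.29. Replicate 3 gave a Stip1 difference of 0.00 in Ang II+Los against Control and of -0.06 in Ang II+PD123319 against Control. None of these co-chaperones passed the adjusted limit.

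Among J proteins outside the members, 1 of 26 was higher in Ang II against Control at 3 h, as were 5.00% of all genes. It was Dnajb4, with 0.43. At 6 h, 2 of 28 were higher and 1 lower, where 6.79% and 4.68% of all genes were, with Dnajb4 at 0.40, Dnajc9 at 0.30 and Dnajc16 at -0.71. Dnajc16 was lower than Control with Losartan by 0.78 (limma adjusted p = 0.0391) and with PD123319 by 0.82 (limma adjusted p = 0.0393). Of the 3 tested heat shock factors, 1 was lower at 3 h with Ang II, where 5.97% of all genes were. This was Hsf1, by 0.43 (SE 0.13, limma adjusted p = 0.322), from -0.44, -0.89, -0.16 and -0.21. It was lower by 0.40 with Ang II+Los and by 0.47 with Ang II+PD123319 relative to the same Control arrays. At 6 h 0 of 4 tested factors passed, where 11.4% to 13.5% of all genes did in the Control comparisons. Among subunits of the cytosolic chaperonin TRiC and of prefoldin, 1 of 12 was higher in Ang II against Control at 3 h, Cct2 with 0.41, against 5.00% of all genes, and 0 passed in the Control comparisons at 6 h. In Ang II+Los against Control at 3 h 9.90% of all genes were higher and 10.1% lower. There 3 of these 12 subunits, 5 of 26 J proteins and 5 of 26 co-chaperones were higher, and 1 co-chaperone was lower.

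Other tested genes of the HSP70, HSP90 and HSP110 families numbered 7. In Ang II against Control, 0 of them passed at 3 h, where 11.0% of all genes did. At 6 h 1 passed, Hspa14 with 0.35, where 11.5% of all genes did. Hspa14 was also higher with Ang II+Los relative to Control, by 0.34 at 3 h and by 0.47 at 6 h, and Hspa2 was higher with Ang II+PD123319 at 6 h by 0.26. Trap1 was higher with Ang II+Los relative to Ang II at 3 h by 0.28. Hspa9, the HSP70 of mitochondria, passed in Ang II+Los against Control at 3 h with -0.91, from -1.01, -2.67, 0.25 and -0.19 on the 4 slides. Among genes of mitochondrial protein quality control, the protease Htra2 was lower at 6 h by 0.39 with Ang II, by 0.40 with Ang II+Los (limma adjusted p = 0.0430) and by 0.33 with Ang II+PD123319. Of the small heat shock proteins outside the members, Cryab was higher at 3 h by 0.28 with Ang II and by 0.33 with Ang II+PD123319, on 4 of 4 slides each. Hspb2 was lower than Control by 0.45 with Ang II+PD123319 at 6 h (limma adjusted p = 0.0297).

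The levels of Hsph1, centred within each slide, were set against those of 13333 genes without gaps over the 32 arrays. As a description without a test, the closest genes outside the members were Cpt1a (Pearson r = 0.94), Slc9a3r1 (r = 0.94), Efhd2 (r = 0.94), Hnrnph2 (r = 0.93) and Gas6 (r = 0.93). These arrays share slides, and the low Losartan arrays of replicates 1 and 2 at 3 h are among them. The Ang II+Los against Ang II differences at 3 h were -0.86, -1.11, -0.59, -0.67 and -0.49 in this order, and those of Ang II against Control at 6 h were 0.51, 0.74, 0.50, 0.45 and 0.34. Among the members, Hspa8 had r = 0.75 with Hsph1 at 3 h and 0.92 at 6 h over 16 arrays each. Dnaja1 had -0.18 at 3 h and 0.97 at 6 h, Hsp90aa1 had -0.33 and 0.88, and Hspa1b had -0.27 and 0.85. Hspe1 had 0.14 and 0.17. Over both times Hspa8 had r = 0.79, Dnaja1 0.23, Hsp90aa1 0.11 and Hspa1b 0.09. Their ranks among the 13333 genes were 343, 4648, 5700 and 5843. The 6 h differences between Ang II and Control, known when the members were picked, enter the 6 h correlations. How many of all genes reach such 6 h correlations was not counted. Hspa4 and Hspd1 had gaps and were not ranked.

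**Figure D5:**
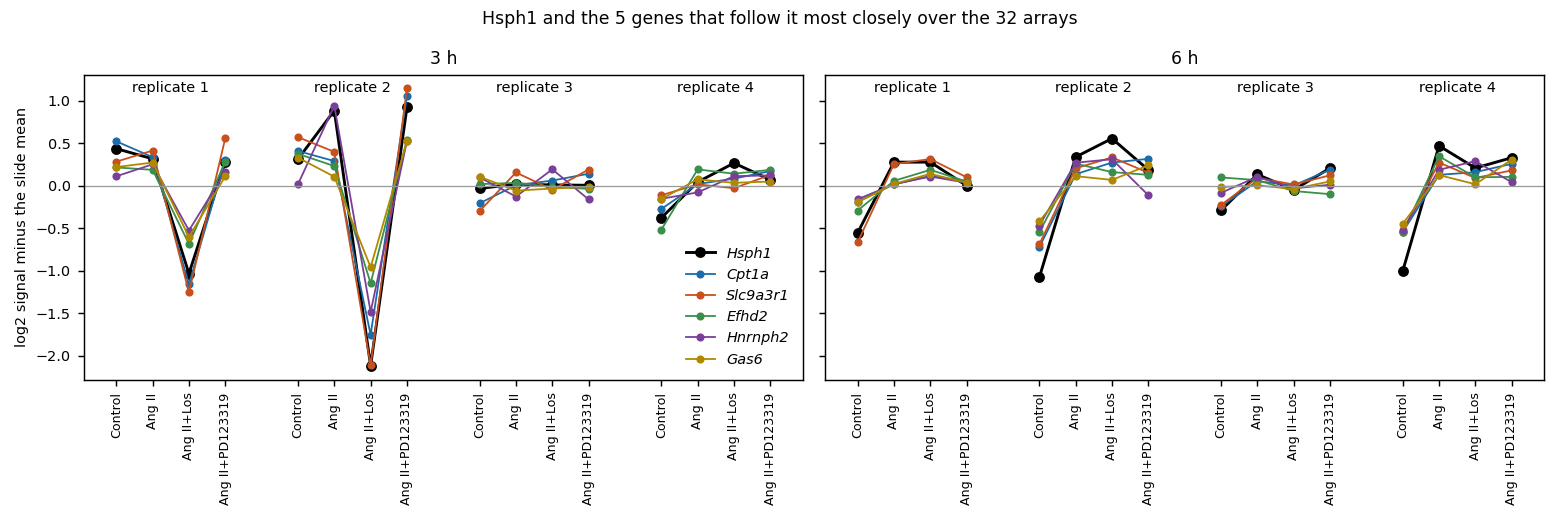
Slide-centred log2 levels of Hsph1 and of the 5 genes closest to it over the 32 arrays, by group and time. Points are arrays and lines join the arrays of 1 slide. Among the 3 h arrays those of Losartan replicates 1 and 2 are the lowest for Hsph1, and at 6 h its Control array is the lowest of every slide.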

How the data were processed

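RNA of 32 samples was hybridized to 1-colour Agilent arrays, 4 replicates for each of 4 groups at 3 h and 6 h, grouped by the sample labels. The scanner software, Agilent Feature Extraction 9.5.3.1 per the submitters' processing notes, gave each spot a background-subtracted intensity, and these intensities were deposited by the authors as 1 scanner table per array. The deposited log2 values equal the log2 of that intensity in 100% of 558689 values within 1e-06, so that they carry no scaling between arrays, and 38.2% are blank.

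Here, control spots and outlier spots were left out, the spots of a probe were averaged, and dim spots took the error of their signal as a floor at 3 h, as the software had done at 6 h. A probe needed every array of 1 or more groups to be well above background, and at most 2 gaps. The log2 signal was normalized by cyclic loess (span 0.7, 3 iterations) among the 16 arrays of a time. Only probes without gaps were averaged where a gene had such probes, because the gaps of 1 Hspa8 probe at 3 h would shift its mean. Well above background were 55.9% to 64.7% of the spots other than control spots at 3 h and 64.2% to 79.8% at 6 h. Precision is limited by how many arrays there are, and the median SE was 0.16 at 3 h and 0.10 at 6 h.

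Comparisons were fitted by limma 3.58.1 in R 4.3.3 (with the package data.table, version 1.17.8) over all genes tested, 13630 at 3 h and 16448 at 6 h, with the slide (the replicate number) as a block and Benjamini-Hochberg adjustment over all of them. The replicate number is that of the slide. Arrays of a slide deviated together from their group means, with correlations of 0.149 to 0.917 at 3 h and 0.553 to 0.827 at 6 h. Arrays of different slides had -0.725 to 0.369 at 3 h, which overlaps, and -0.655 to 0.129 at 6 h. The replicate numbers were taken as pairs. At 3 h replicates 1 and 2 were scanned apart from replicates 3 and 4, and at 6 h replicates 1 to 3 apart from replicate 4. The script was tested on simulated data.

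The members and the lists of related genes were chosen with earlier results of these data known. Named are the 10 members and the 5 genes closest to Hsph1. Genes of the lists were named from up to 3 past both limits per list and comparison, by the size of the fold change. Not every such gene or comparison is given. Of 142 names in the lists and marker sets, 130 were found as given, 5 by another name, 6 were not found, and 1, Hspa1a, led to the array's Hspa1b and was left out. Alternatives were other scalings, backgrounds, filters and tests, the deposited values, each probe alone, the scans apart, and replicates left out. Promoters are from RefSeq on GRCr8. Sequences and figures were handled in Python 3.11.15 (matplotlib 3.10.9, pandas 2.3.3 and numpy 2.4.6). Quantitative PCR and networks of the study were not analysed here.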

Additional observations from a re-analysis of the deposited data

Results flagged for a closer look

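In 7 of 78 groups of 4 arrays, 1 array lay far from the other arrays of its group by Dixon's criterion (the gap to the nearest array over the range), and chance flags about 1 in 20 such groups. At 3 h, Dnajb1 was lowest in replicate 3 with Ang II (9.24, the nearest array 10.38) and with Ang II+Los (9.07, the nearest 10.29). Hspa8 was highest in replicate 2 with Ang II at 13.58 (nearest 12.51). Hsp90aa1 was highest in replicate 4 with Ang II+PD123319 at 12.64 (nearest 12.34). Hspa4 was lowest in Control replicate 1 at 11.04 (nearest 11.60), and Hspd1 was lowest in replicate 4 with Ang II+Los at 13.07 (nearest 13.37). At 6 h, Hsph1 was highest in Control replicate 3 at 7.74 (nearest 7.30).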

How the results depend on the processing

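Each member was refitted under every alternative, which gave 1750 values from alternatives set at the start and 120 from those chosen after seeing the data. Of these, 1526 and 108 kept their sign and counted as unchanged. Unchanged means the same side of the limits. Within scans and in Ang II against Control at 6 h it means a move smaller than the SD of the slide differences. Calls were lost in 52 and 1 and gained in 55 and 2, and 12 and 0 values moved by more than that SD. Another 104 and 8 changed sign where the main setting had no call. The 1 call that changed sign was Hsph1 in Ang II+Los against Ang II at 3 h, which was 0.11 within the scan of replicates 3 and 4 and 0.11 without replicates 1 and 2 together, an alternative chosen after seeing the data. The cause was not tested.

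The number of members past the limits moved as follows, by comparison. With no replicate block, so that the pairing by slide is dropped, it was 1 in Ang II against Control and 0 in Ang II+PD123319 against Control at 3 h, where both had 3 with the block, and the block changed no other count of members by more than 1.5 times. The methods' paired t-test gave 0 and 1 there, 0 in Ang II+Los against Ang II, 1 in Ang II+Los against Control, and at 6 h 1 in Ang II against Control and 2 in Ang II+PD123319 against Control. The unpaired test gave 0, 0, 0 and 1 in the same order of 3 h comparisons, and 3 in Ang II against Control at 6 h. Counts over all 13630 genes at 3 h follow with the block, without it, by the paired and by the unpaired test. They were 1495, 351, 659 and 209 in Ang II against Control and 827, 118, 521 and 147 in Ang II+PD123319 against Control. Those of Ang II+Los were 1388, 345, 136 and 96 against Ang II and 2727, 652, 333 and 232 against Control. With only the 8 arrays of a comparison, Ang II+Los against Ang II had 0, Ang II+Los against Control 1 and Ang II+PD123319 against Ang II 1 at 3 h, and Ang II against Control had 3 at 6 h. Over all genes these comparisons had 410, 986, 656 and 1631 in this setting, against 1388, 2727, 361 and 1885 with all arrays. In Ang II+Los against Ang II at 3 h, quantile normalization and the normexp background with an offset of 50 gave 2 each, no filter on dim probes gave 0, each probe on its own gave 3, and leaving out replicates 1 and 2 together gave 0. That last setting gave 1 in Ang II+Los against Control at 3 h. Over all genes in Ang II+Los against Ang II, quantile normalization gave 1334, normexp 1007 and no filter 1646 of 26583. In Ang II+PD123319 against Ang II at 3 h, the deposited values, quantile normalization, the scale of the 75th percentile and each probe on its own gave 1 each, where none had passed. In Ang II+Los against Control at 6 h, normexp gave 6 and each probe on its own 5, against 3. Over all genes normexp gave 801 there, against 1883.

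Leaving out 1 replicate gave 0 to 5 members in Ang II against Control at 3 h, 0 to 1 in both antagonist comparisons with Ang II, 1 to 5 in Ang II+Los against Control and 1 to 4 in Ang II+PD123319 against Control. At 6 h it gave 2 to 5 in Ang II against Control, 3 to 6 in Ang II+Los against Control and 2 to 5 in Ang II+PD123319 against Control. The lowest 3 h counts came without replicate 4 in Ang II against Control, without replicate 2 in both comparisons of Ang II+Los, and without replicate 2 or replicate 4 in Ang II+PD123319 against Control. At 6 h they came without replicate 4 in Ang II against Control and in Ang II+PD123319 against Control. Leaving out replicate 3 lowered none of these counts of members. Over all genes, the same omissions at 3 h gave 765 in Ang II against Control. They gave 222 and 854 for Ang II+Los against Ang II and against Control, and 604 and 586 for Ang II+PD123319 against Control. At 6 h they gave 1224 and 1314, against 1885 and 2216 with all replicates.

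Over all genes, the number past the limits fell without the block in all 10 comparisons, to between 35 and 755, against 148 to 2727 with it. The mean over whatever probes each array has, chosen after seeing the data, moved Hspa8 in Ang II against Control at 3 h to 0.74 and in Ang II+PD123319 against Control to 0.67, both past the limits.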
